A study of Mus musculus with 8 samples.

Results

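GABA and glycine are the fast inhibitory transmitters of the retina, and the genes described here encode their receptors, the scaffold that holds those receptors at the synapse, the cotransporters that set the chloride gradient, and proteins of GABA and glycine uptake and breakdown. A list of 28 mouse gene symbols defined the group, and all 28 were found among the 24860 symbols of the expression table. Of these, 23 had a mean of at least 1 FPKM over the 8 libraries, against 12858 of all symbols. FPKM scales sequenced fragments to transcript length and library size, so levels of different genes can be set side by side. The list does not hold every subunit gene of these receptors.

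The libraries were made from total RNA of mouse retina, and the labels name retinal ganglion cells (RGCs) as the cell type. 4 libraries are labelled AAV2-shCX36, an adeno-associated virus carrying a short hairpin RNA against connexin 36, which forms gap junctions between neurons. AAV2-scramble, with another 4 libraries, is the same type of vector with a control sequence, so every library comes from a group named for a virus. Strain, genotype, age, sex, time after injection, any injury and any pooling of animals are not given in the sources used here, and neither is the promoter of the vector. The design text speaks of different mice without tying libraries to animals, so each p-value here reflects library-to-library spread, which may be partly technical.

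GABA-A receptors are pentameric chloride channels built from alpha, beta, gamma and other subunits. The Gabrr subunits form a separate class of GABA-gated chloride channel that is known for slow, sustained currents at bipolar cell terminals. Glycine receptors are chloride channels of alpha subunits with the beta subunit Glrb, and GABA-B receptors are G-protein-coupled pairs of Gabbr1 and Gabbr2. Whether an open chloride channel inhibits a neuron depends on the balance between Slc12a5 (KCC2), which exports chloride, and Slc12a2 (NKCC1), which imports it.

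Gjd2, the gene of connexin 36, had 14.0 to 17.03 FPKM in AAV2-shCX36 and 17.4 to 38.7 FPKM in AAV2-scramble, with controls 1 and 2 at 38.7 and 35.9. Its log2 difference was -0.70 ± 0.25 (SE) with an adjusted p of 0.148 in limma, so the target gene was lower in each treated library without passing the threshold over all genes. AAV2-scramble libraries 1 and 2 stood apart from the other 6 in cell type markers. The summed FPKM of 8 bipolar cell markers was 393 and 391 in them, against 88.1 and 128 in AAV2-scramble 3 and 4 and 128 to 198 in AAV2-shCX36. The sum of 8 oligodendrocyte markers was 47.7 and 161 against 5.25 to 6.28 in the other 6 libraries. The sum of 8 ganglion cell markers, among them Rbpms, Thy1 and Pou4f1, was 1932 and 1465 in these controls and 2293 to 2671 in the others. Markers of the labelled cell type were thus present in every library. Microglia markers summed to 846 and 794 FPKM in AAV2-scramble 1 and 2 and to 187 to 427 elsewhere. Other marker sums separated the groups: 5 rod markers, each called lower, had 1053 to 1474 FPKM in controls and 605 to 808 in AAV2-shCX36, and 5 horizontal cell markers 117 to 125 and 70.4 to 101. The horizontal cell sum was mostly Calb1 (53.2 to 95.7 FPKM), the only one of the 5 called lower. Lhx1 did not overlap between the groups, and Onecut1, Onecut2 and Gja10 did. AAV2-shCX36 1 and 4 stood apart in the sum of 6 lens markers, at 125 and 276 FPKM against at most 16.96 elsewhere. These sums were mostly Cryaa (109 and 236 FPKM). Cryba1, Crygs and Lim2 were also highest in these libraries, and Mip and Bfsp1 overlapped the others. The part of these cell types in the results was not tested. Depth was read from the spacing of the lowest values, and a transcript of 1 kilobase at 1 FPKM corresponded to about 36 to 39 fragments in each library.

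None of the 23 genes tested passed an adjusted p of 0.05 in limma with Benjamini-Hochberg adjustment over all 12858 genes, where 4.76% of genes were called (2.24% higher and 2.52% lower). At an unadjusted p under 0.05 there were 8, or 34.8%, with 5 higher and 3 lower in AAV2-shCX36, beside 22.6% of all genes (12.3% higher and 10.3% lower). The groups did not overlap in 3 of the 23, or 13.0%, beside 15.9% of all genes (8.85% higher and 7.05% lower). Gabbr1 and Glra3 were higher and Glra1 lower. The median log2 difference of the 23 was 0.06, and that of all genes was 0.01. The differences are small beside the levels, which span from Slc12a5 at a mean of 237 FPKM over the 8 libraries to Gabrg1 at 1.19.

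**Figure D1:**
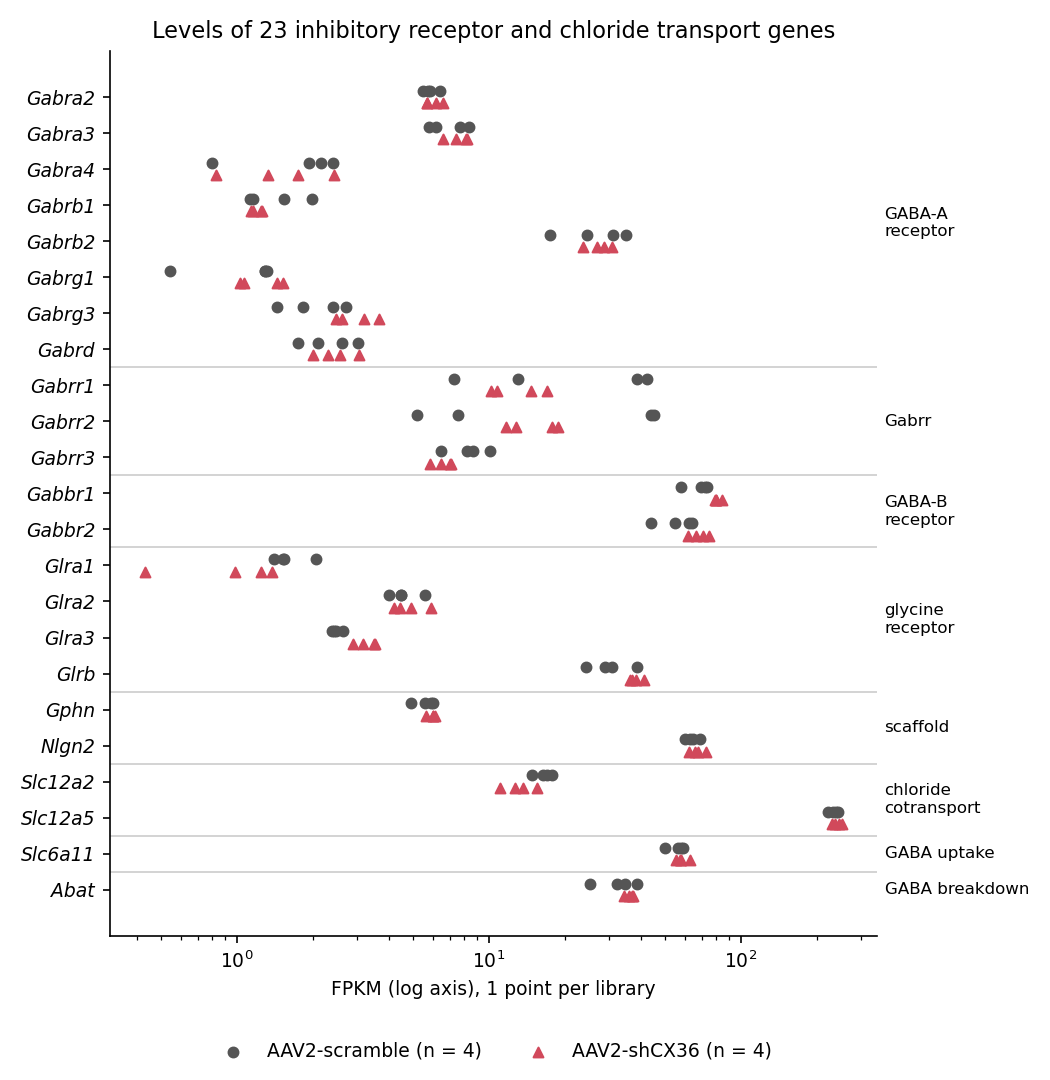
FPKM of each of the 23 genes above the level limit, on a log axis, with 1 point per library (circles, AAV2-scramble; triangles, AAV2-shCX36; n = 4 each) and genes grouped by role. Slc12a5 lies above all others, the 2 groups are separated in Gabbr1, Glra1 and Glra3 only, and Gabrr1 and Gabrr2 split the controls into a high and a low pair.

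Among the 23 tested genes, the highest and lowest libraries lay furthest apart in Gabrr2 and Gabrr1. Gabrr1 and Gabrr2 are neighbours on chromosome 4 in the same orientation. Gabrr2 lies at chr4:33062999-33095865 and Gabrr1 at chr4:33132521-33163588 of GRCm38 (GENCODE M21), with 36655 bases between them. Gabrr3 lies apart at chr16:59407332-59464504. The 120 bases before the annotated GENCODE start of each gene are shown because the neighbours varied together from library to library and Gabrr3 did not. The bases come from the RefSeq promoter table for GRCm38.p6, plus strand, 5′ to 3′, and capitals mark a match to the E-box form CAGNTG on either strand. Other forms of the E-box (CANNTG) were not searched or marked.
Gabrr1, chr4:33132401-33132520: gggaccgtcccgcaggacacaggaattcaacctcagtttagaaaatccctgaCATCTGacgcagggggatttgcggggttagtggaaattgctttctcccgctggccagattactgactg
Gabrr2, chr4:33062879-33062998: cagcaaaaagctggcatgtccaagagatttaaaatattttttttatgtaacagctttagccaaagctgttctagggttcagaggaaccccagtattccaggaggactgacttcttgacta
Gabrr3, chr16:59407212-59407331: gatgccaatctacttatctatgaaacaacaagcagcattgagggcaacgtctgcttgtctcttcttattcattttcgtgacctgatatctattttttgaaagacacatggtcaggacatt
The CAGNTG form occurred in the Gabrr1 window and in 24.7% of the 32851 RefSeq promoter windows of the same length. Those windows end at the RefSeq start and the 3 shown here at the GENCODE start, so their positions are not quite alike. The homeodomain cores GGATTA and TAATTA, also searched on both strands, were in none of the 3 windows and in 2.84% and 2.09% of all windows. A match is a description of letters and an absent match says nothing beyond this window. RefSeq places the start of the Gabrr2 gene further upstream, at position 33057712, so its window may lie inside a longer transcript. The promoter table that supplied the bases places the Gabrr2 start downstream of the GENCODE start instead, at 33063112.

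Gabrr1 had 42.6, 38.6, 7.24 and 13.0 FPKM in AAV2-scramble 1 to 4 and 16.9, 10.7, 10.2 and 14.7 in AAV2-shCX36 1 to 4. Gabrr2 had 43.9, 45.2, 5.20 and 7.54 FPKM in the controls and 17.9, 11.7, 12.8 and 18.8 in AAV2-shCX36. In both genes the treated libraries lay between a high pair of controls, libraries 1 and 2, and a low library or pair. The highest library was 5.88 times the lowest in Gabrr1 and 8.69 times in Gabrr2, whereas Gabrr3 ran from 5.85 to 10.1 FPKM.

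The log2 difference of Gabrr1 was -0.61 ± 0.50 (SE, adjusted p = 0.498 in limma) and that of Gabrr2 -0.19 ± 0.64 (adjusted p = 0.894). The sign depended on which controls were used. With AAV2-scramble 1 and 2 left out the values were 0.37 (adjusted p = 0.404) and 1.13 (adjusted p = 0.0189). Leaving out AAV2-scramble 3 and 4 instead gave -1.58 and -1.51 (adjusted p = 0.00190 and 0.00199). Gabrr2 therefore passed the threshold in opposite directions against the 2 pairs of controls. These pairs follow the split seen in the control values themselves, so each such fit leaves out the spread between the pairs. Its SE fell from 0.64 to 0.21 and 0.18. The adjusted p-values of these fits describe that split and are not independent tests.

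Gabrr1 and Gabrr2 followed the bipolar cell markers across libraries. Per library, Gabrr1 amounted to 7.91% to 10.8% of the summed FPKM of the 8 bipolar markers, a range of 1.37 times. Gabrr2 amounted to 5.88% to 11.6%, and Gabrr3 to 1.64% to 9.83%. Among those markers Grm6, the glutamate receptor of ON bipolar cells, had 54.0 and 60.2 FPKM in AAV2-scramble 1 and 2, 6.83 and 9.91 in AAV2-scramble 3 and 4, and 15.3 to 25.3 in AAV2-shCX36. Trpm1, the channel it controls, had 27.5 and 29.2, then 5.17 and 7.10, then 9.37 to 16.2 FPKM in the same groups. Prkca, a rod bipolar kinase gene, did not share this pattern, with 7.40 and 9.35 FPKM in AAV2-scramble 1 and 2 and 8.55 to 11.9 elsewhere. None of the 8 bipolar markers passed the threshold in limma, and the single markers named here were chosen after their values were seen. In bulk RNA, fewer cells of a type and less RNA per cell cannot be told apart, and the part of bipolar cell RNA in the Gabrr1 and Gabrr2 values was not tested.

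**Figure D2:**
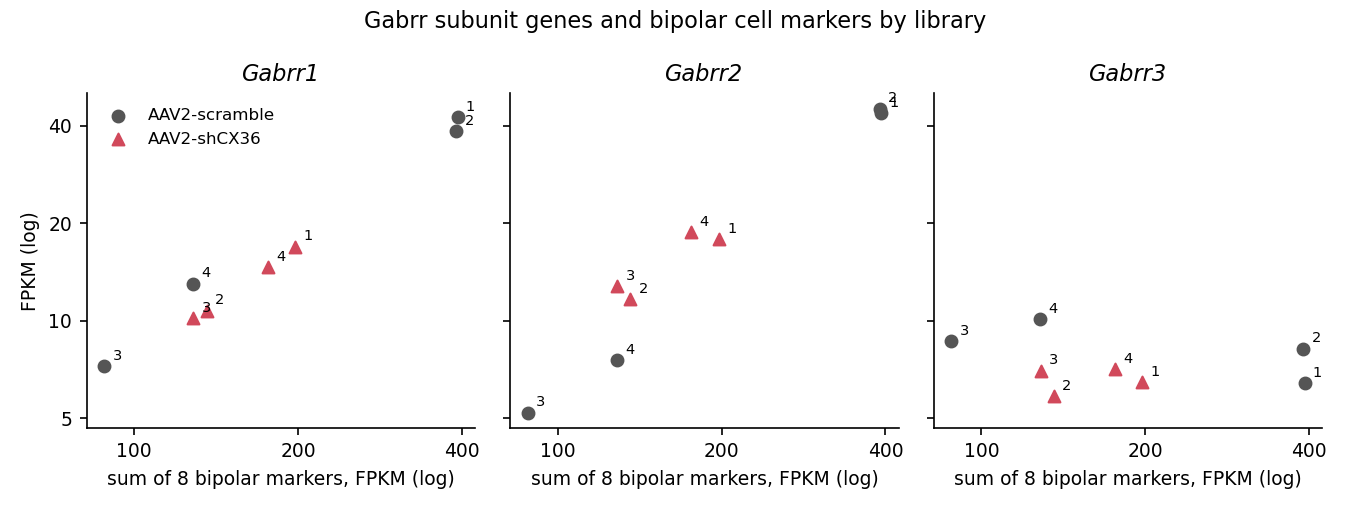
FPKM of Gabrr1, Gabrr2 and Gabrr3 against the summed FPKM of 8 bipolar cell markers, both axes logarithmic, with 1 numbered point per library (circles, AAV2-scramble; triangles, AAV2-shCX36). Gabrr1 and Gabrr2 are highest in AAV2-scramble 1 and 2, where the marker sum is 393 and 391 FPKM, and lowest in AAV2-scramble 3, where it is 88.1; Gabrr3 stays between 5.85 and 10.1 FPKM.

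Gabrr3 differed from its relatives in both respects. It had 6.43, 8.21, 8.66 and 10.1 FPKM in AAV2-scramble 1 to 4 and 6.47, 5.85, 7.02 and 7.09 in AAV2-shCX36 1 to 4. The treated libraries overlapped the control group only through AAV2-scramble 1. The log2 difference was -0.29 ± 0.12 (SE) with an adjusted p of 0.204 in limma, and without AAV2-scramble 1 and 2 it was -0.45 with an adjusted p of 0.0367. Leaving out AAV2-scramble 3 and 4 instead gave -0.12 (adjusted p = 0.442).

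Among the conventional GABA-A subunits, 8 of 10 reached a mean of 1 FPKM, none passed the threshold, and 6 of the 8 log2 differences were positive. Gabrb2, the beta2 subunit, was the most abundant, with 24.5, 17.4, 31.0 and 34.9 FPKM in AAV2-scramble 1 to 4 and 26.9, 30.7, 28.6 and 23.6 in AAV2-shCX36 1 to 4. Its groups overlapped completely, with a log2 difference of 0.06 and a 95% interval of -0.36 to 0.49. Control library 2 was the lowest of all 8, and without AAV2-scramble 1 and 2 the difference was -0.26 (adjusted p = 0.172). It was 0.38 when AAV2-scramble 3 and 4 were left out (adjusted p = 0.0771).

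The alpha subunits decide much of the pharmacology of the receptor. Gabra3 (alpha3) had 6.18, 5.77, 8.31 and 7.69 FPKM in AAV2-scramble 1 to 4 and 6.58, 7.39, 8.13 and 8.19 in AAV2-shCX36. Gabra2 (alpha2) varied least, from 5.47 to 6.59 FPKM over the 8 libraries. The log2 differences were 0.11 for Gabra3 and 0.03 for Gabra2, with 95% intervals of -0.16 to 0.38 and -0.14 to 0.21. Gabra4 (alpha4), an extrasynaptic partner of the delta subunit in other brain regions, ranged from 0.796 to 2.40 FPKM in controls and from 0.830 to 2.43 in AAV2-shCX36, a spread that left an interval of -0.68 to 0.43.

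Gabrg3 (gamma3) had the highest log2 difference of the 23 genes. It had 1.84, 1.44, 2.70 and 2.41 FPKM in AAV2-scramble 1 to 4 and 2.62, 3.21, 3.68 and 2.47 in AAV2-shCX36 1 to 4. Treated libraries 2 and 3 exceeded every control, and treated libraries 1 and 4 lay just inside the control range. The log2 difference was 0.38 ± 0.16 (SE, unadjusted p = 0.0387, adjusted p = 0.196 in limma). It was 0.16 without AAV2-scramble 1 and 2 (adjusted p = 0.530) and 0.59 without AAV2-scramble 3 and 4 (adjusted p = 0.0237). AAV2-scramble 1 and 2 were the lowest libraries in Gabrg3 and also in the sum of ganglion cell markers.

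The other conventional subunits were near the lower limit. Gabrd (delta), which serves tonic inhibition outside the synapse, had 1.75 to 3.02 FPKM in controls and 2.01 to 3.05 in AAV2-shCX36. Gabrb1 (beta1) had 1.13 to 1.99 FPKM in controls and 1.13 to 1.25 in AAV2-shCX36, and Gabrg1 (gamma1) had 0.543 to 1.32 and 1.03 to 1.52. Gabra4 and Gabrb1 are head-to-head neighbours on chromosome 5 that share 196 bases of annotation at their starts, and since strand use in the counting is not stated, fragments there could go to either. Gabra5 (alpha5) did not reach the mean of 1 FPKM. It had 0.308, 0.186, 0.541 and 0.306 FPKM in AAV2-scramble 1 to 4 and 0.651, 0.571, 0.632 and 0.787 in AAV2-shCX36, so its groups did not overlap, and its adjusted p was 0.132 in limma without a filter. The annotation of Gabra5 overlaps a more abundant gene on the opposite strand, so part of its fragments may belong there. Gabre (epsilon) was at or near 0 everywhere, with 0.0760 FPKM as the highest value.

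Both GABA-B subunits were higher in AAV2-shCX36 without passing the threshold. Gabbr1 (chr17:37045966-37075067), the GABA-binding subunit, had 69.7, 58.0, 72.4 and 73.6 FPKM in AAV2-scramble 1 to 4 and 79.8, 83.9, 79.3 and 79.5 in AAV2-shCX36 1 to 4. Every treated library exceeded every control. The means were 80.6 ± 2.22 against 68.4 ± 7.15 FPKM (SD, n = 4), a log2 difference of 0.24 ± 0.08 (SE, adjusted p = 0.121 in limma).

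Gabbr2, the subunit that couples to the G protein, had 55.0, 44.0, 62.3 and 64.0 FPKM in controls and 66.2, 74.7, 70.6 and 61.7 in AAV2-shCX36. Treated library 4 fell inside the control range, and the other 3 lay above it. Its log2 difference was 0.28 ± 0.12 (SE, adjusted p = 0.193), and 0.17 without AAV2-scramble 2 (adjusted p = 0.269). The ratio of Gabbr1 to Gabbr2 stayed between 1.12 and 1.32 in all 8 libraries. Without AAV2-scramble 1 and 2 the differences were 0.14 and 0.11 (adjusted p = 0.135 and 0.433 in limma). Without AAV2-scramble 3 and 4 they were 0.34 and 0.46 (adjusted p = 0.0203 and 0.0176).

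Glycine receptor genes gave 3 of the 8 unadjusted differences, in both directions. Glra3 (alpha3; chr8:55940460-56130070) had the lowest adjusted p of all 23 genes. It had 2.64, 2.39, 2.47 and 2.44 FPKM in AAV2-scramble 1 to 4 and 3.52, 3.49, 3.17 and 2.88 in AAV2-shCX36 1 to 4. The controls were tightly grouped and all 4 treated libraries lay above them. The log2 difference was 0.29 ± 0.09 (SE, 95% interval 0.09 to 0.48, adjusted p = 0.0970 in limma). Unlike most members, it hardly moved with the choice of controls, at 0.30 without the first pair of controls and 0.28 without the second.

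Glra1 (alpha1; chr11:55514238-55608198), the subunit of adult spinal glycine receptors that also serves fast glycinergic synapses in retina, had the opposite sign. It had 1.41, 2.07, 1.52 and 1.54 FPKM in controls and 1.38, 1.25, 0.986 and 0.430 in AAV2-shCX36. The groups did not overlap, but the gap between them was narrow, from 1.38 to 1.41 FPKM. The log2 difference was -0.41 ± 0.17 (SE, adjusted p = 0.202 in limma), and it was -0.36 and -0.46 without each pair of controls. AAV2-shCX36 4 was the lowest library, and without it the difference was -0.25 (adjusted p = 0.341). The size also depended on the scale, at -0.73 with a pseudocount of 0.1 and -0.61 after rescaling to TPM.

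Glra2 (alpha2), the most abundant alpha subunit, had 4.49, 4.02, 4.48 and 5.58 FPKM in controls and 5.87, 4.45, 4.93 and 4.19 in AAV2-shCX36, with overlapping groups and a log2 difference of 0.05 (95% interval -0.21 to 0.32). Glra4 (alpha4) stayed below the limit, with 0.306 to 0.469 FPKM in controls and 0.370 to 0.550 in AAV2-shCX36. The annotation of Glra4 overlaps a more abundant gene on the opposite strand, BC065397 (mean 1.47 FPKM), so part of its fragments may belong there. As shares of the FPKM summed over the 4 alpha genes, Glra2 made up 45.7% to 55.6% in every library. Glra3 made up 24.3% to 29.5% in controls and 31.6% to 36.0% in AAV2-shCX36, and Glra1 15.4% to 23.5% and 5.37% to 12.8%. The shares of Glra3 and Glra1 did not overlap between groups. They are given as a description, and since shares sum to a whole they are not independent of one another.

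Glrb, the beta subunit that anchors the receptor to gephyrin, had 28.8, 24.3, 30.8 and 38.8 FPKM in AAV2-scramble 1 to 4 and 38.4, 41.3, 36.4 and 37.0 in AAV2-shCX36. Only AAV2-scramble 4 reached the treated range. The fitted difference in log2 was 0.33 ± 0.12 (SE, adjusted p = 0.162 in limma). It passed without AAV2-scramble 4 (0.44, adjusted p = 0.0261) and without AAV2-scramble 3 and 4 (0.51, adjusted p = 0.00593), and was 0.14 without AAV2-scramble 1 and 2 (adjusted p = 0.408). AAV2-scramble 2 was the lowest of the 8 libraries in 16 of the 23 genes, Glrb, Gabbr1, Gabbr2, Gabrg3, Gabrb2 and Abat among them. The share of all genes that were lowest in that library was not computed, so the count cannot be read as particular to these genes. AAV2-scramble 2 also had the lowest sum of ganglion cell markers, 1465 FPKM. The sum of 8 amacrine markers was lowest there too (1486 FPKM against 2028 to 2820), but it is mostly Calb2, which ganglion cells also express. Without Calb2 the amacrine sum was 108 to 116 FPKM in every library, but single markers did not move together. Of the 8, 2 were highest in AAV2-scramble 2 (Tfap2a and Gad1) and 2 were lowest there (Pax6 and Calb2). Pax6, at 52.7 to 67.2 FPKM, was the largest part of the sum without Calb2. Between the groups, Pax6 was called higher in AAV2-shCX36 (adjusted p = 0.0380 in limma) and Tfap2b lower (adjusted p = 0.0176). The part of ganglion or amacrine cell RNA in the differences of Glrb and the genes named with it was not tested.

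**Figure D3:**
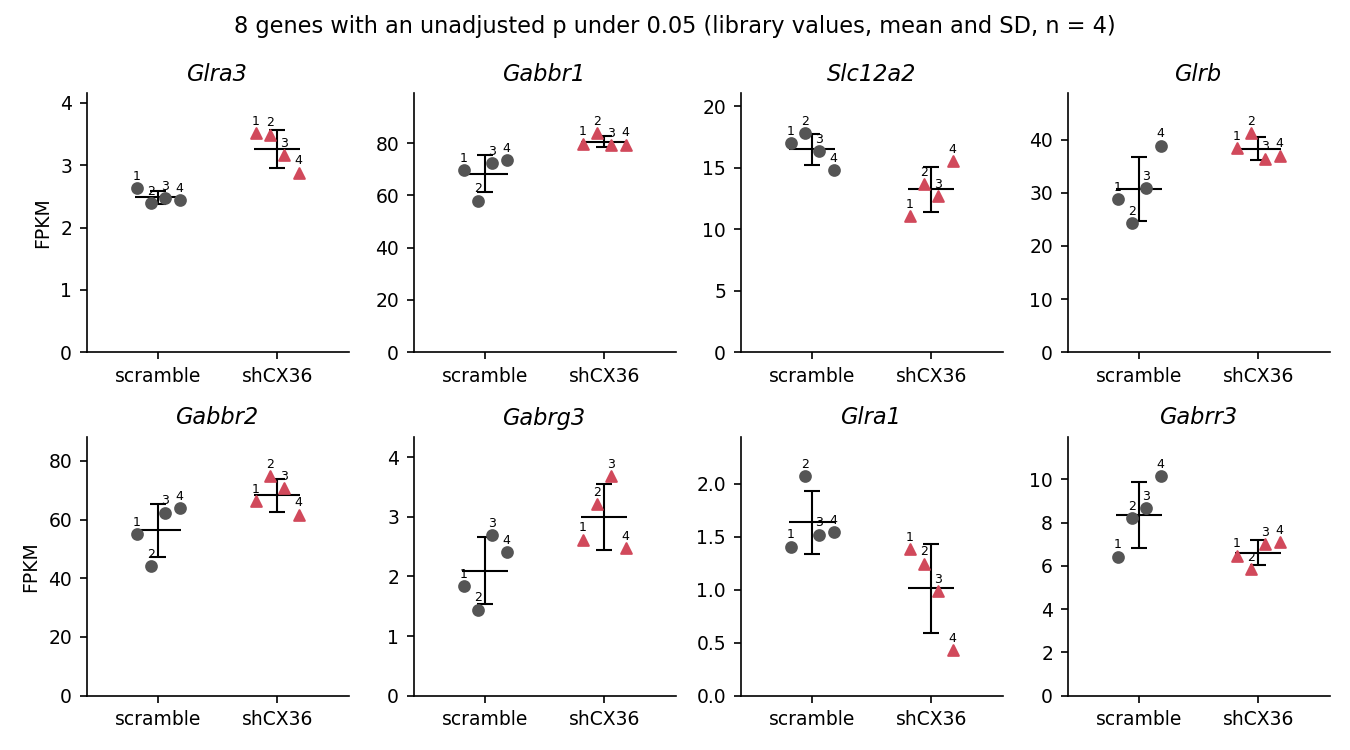
FPKM by library for the 8 genes with an unadjusted p under 0.05, ordered by p, with numbered points for the 4 libraries of each group and the mean and SD as bars. The groups are separated in Glra3, Gabbr1 and Glra1 and overlap in the other 5.

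The scaffold genes differed little. Gphn, for gephyrin, the lattice protein under glycine and GABA-A receptors, ranged from 4.93 to 6.004 FPKM in controls and from 5.66 to 6.14 in AAV2-shCX36. Nlgn2, the neuroligin of inhibitory synapses, ranged from 59.8 to 68.8 and from 62.0 to 72.6 FPKM. Their log2 differences were 0.08 and 0.06, with 95% intervals of -0.09 to 0.25 and -0.09 to 0.21.

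The chloride cotransporters were unequal in level and in difference. Slc12a5, the neuronal exporter KCC2 (chr2:164960802-164999731), had 243, 222, 233 and 239 FPKM in AAV2-scramble 1 to 4 and 245, 252, 236 and 230.1 in AAV2-shCX36 1 to 4. It was the highest of the 28 genes in every library, and its groups overlapped. The fitted difference in log2 was 0.04 with a 95% interval of -0.10 to 0.17, the narrowest of the 23.

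Slc12a2, the importer NKCC1 (chr18:57878678-57946821), had 17.003, 17.8, 16.4 and 14.8 FPKM in controls and 11.1, 13.7, 12.7 and 15.5 in AAV2-shCX36. The groups overlapped through AAV2-scramble 4 and AAV2-shCX36 4. The fitted difference in log2 was -0.30 ± 0.10 (SE, unadjusted p = 0.0145, adjusted p = 0.126 in limma), and it was -0.23 when the first pair of controls was left out and -0.38 when the second pair was (adjusted p = 0.288 and 0.0459). The ratio of Slc12a5 to Slc12a2 was 14.3, 12.5, 14.2 and 16.1 in controls and 22.1, 18.4, 18.6 and 14.8 in AAV2-shCX36. This ratio was above every control in treated libraries 1 to 3 and inside the control range in library 4. Müller glia also express Slc12a2, and the sum of 8 Müller markers was 395 to 690 FPKM in controls and 155 to 262 in AAV2-shCX36. The part of Müller RNA in the Slc12a2 difference was not tested.

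Of the 3 listed transporters that clear GABA and glycine, Slc6a11 alone passed the level filter. Slc6a11 (GAT3), a glial and neuronal GABA transporter, had 56.1, 49.96, 57.8 and 58.9 FPKM in controls and 57.3, 57.7, 62.9 and 55.5 in AAV2-shCX36, a log2 difference of 0.07 (95% interval -0.09 to 0.22). Slc6a13 (GAT2), which is found in epithelia and meninges more than in neurons, had a mean of 0.975 FPKM, just under the limit. It had 0.304, 0.665, 0.325 and 0.237 FPKM in controls and 3.36, 1.24, 0.427 and 1.24 in AAV2-shCX36. AAV2-shCX36 library 1 was highest, and the groups overlapped through treated library 3. AAV2-shCX36 1 was also the highest library in 2 of 6 pigment epithelium markers, Ttr and Tyrp1, with 3.15 and 1.93 FPKM against at most 0.639 and 0.196 elsewhere. The other 4 did not follow, since Best1 (1.22 FPKM) and Pmel (0.209) lay within the range of the other libraries, Rgr (0.0109) was the lowest of all 8 and Rpe65, the defining marker, was listed at 0 there. The summed level of the 6 was 6.51 FPKM in AAV2-shCX36 1 and 1.12 to 2.38 elsewhere, and the part of epithelial RNA was not tested. Slc6a5 (GlyT2), the neuronal glycine transporter of the brainstem and spinal cord, ranged from 0.398 to 0.772 FPKM.

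Abat, the transaminase that degrades GABA, had 32.4, 25.3, 34.6 and 38.8 FPKM in controls and 35.9, 37.0, 37.3 and 34.5 in AAV2-shCX36. The treated libraries lay within the control range. The fitted difference in log2 was 0.15 ± 0.11 (SE, adjusted p = 0.454 in limma), -0.02 when AAV2-scramble 1 and 2 were left out, and 0.33 when AAV2-scramble 3 and 4 were (adjusted p = 0.0388).

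**Figure D4:**
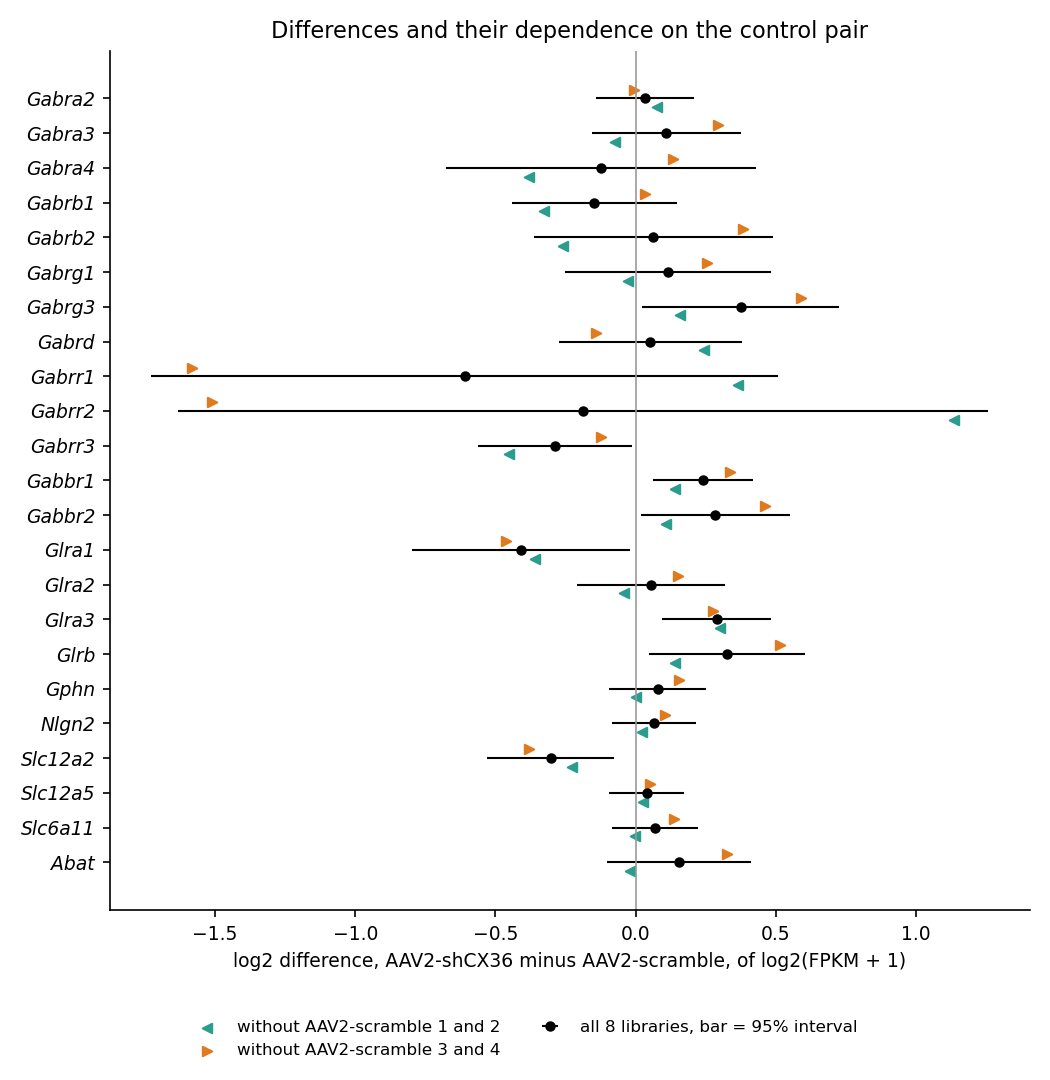
Log2 difference, AAV2-shCX36 minus AAV2-scramble, of log2(FPKM + 1) for the 23 genes, with the 95% interval from limma on all 8 libraries (black) and the value without each pair of controls (coloured triangles). Glra3 and Slc12a5 move little between the choices, and Gabrr2 moves from 1.13 without AAV2-scramble 1 and 2 to -1.51 without AAV2-scramble 3 and 4.

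Calls depended on the choice of controls. The pairs of controls follow a split seen in these same data, so the adjusted p-values against 1 pair leave out the spread between pairs. Against AAV2-scramble 1 and 2 alone, 8 of 24 genes tested passed in limma, or 33.3%, beside 26.7% of all genes. Gabrg3, Gabbr1, Gabbr2, Glrb and Abat were higher there, and Gabrr1, Gabrr2 and Slc12a2 lower. Against AAV2-scramble 3 and 4 alone, Gabrr2 was higher and Gabrr3 lower, or 8.33% of 24 genes beside 7.51% of all genes. With AAV2-shCX36 1 and 4, the libraries high in lens markers, left out, 0 of 23 passed, beside 0.75% of all genes. The added gene among the 24 was Slc6a13, whose mean reached 1 FPKM with fewer controls.

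A wider list of inhibitory synapse genes gave 1 call, or 3.03% of those tested, beside 4.76% of all genes. It held 39 symbols for transmitter synthesis and loading, GABA-B partners, receptor trafficking and chloride regulation, of which 38 were found and 33 tested. Mdga1 fell and no gene rose, and the median log2 difference was 0.01. Mdga1, a membrane protein that binds neuroligin 2 and keeps it from neurexin, had 4.18, 5.16, 5.40 and 4.74 FPKM in AAV2-scramble 1 to 4 and 3.35, 3.01, 3.01 and 2.81 in AAV2-shCX36 1 to 4. All treated libraries lay below all controls, with a log2 difference of -0.53 ± 0.09 (SE, adjusted p = 0.0164 in limma). Its difference was -0.58 and -0.48 without each pair of controls (adjusted p = 0.0152 and 0.0171), but its adjusted p was 0.0605 without AAV2-shCX36 2, 0.0569 without AAV2-shCX36 3 and 0.0509 without AAV2-scramble 3. Gad1 and Slc32a1 did not pass and were chosen after their values were seen. Gad1, which makes GABA, had 10.2, 11.2, 5.55 and 7.34 FPKM in controls and 5.45 to 8.63 in AAV2-shCX36, and Slc32a1, the vesicular transporter of both transmitters, 8.82 to 9.66 and 6.56 to 9.61.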

How the data were processed

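Expression was measured by RNA sequencing in 8 libraries, 4 per group. FPKM values were computed and deposited by the authors, and 0 value columns were unmatched to a sample. The submitters' processing notes name fastp, HISAT2, HTSeq, R 3.2.0, DESeq2 and the builds GRCm38 and mm10. No counts were used, so no count model was run. Groups came from the sample titles. limma 3.58.1 (R 4.3.3; lmFit and eBayes with trend) was fitted on log2(FPKM + 1) for genes averaging 1 FPKM or more across libraries, with Benjamini-Hochberg adjustment and a threshold of 0.05. The fitted log2 differences understate changes of low genes. The fit was tested on simulated data with independent noise in each library, which hold no deviation shared by libraries such as AAV2-scramble 1 and 2. Depth was estimated from repeated low values, with absolute scale from 20 of 99 single-exon genes, and is approximate. Means and SD are over n = 4 libraries. All 28 genes matched GENCODE M21 by symbol, and 24 matched the RefSeq promoter table. Members and lists were chosen with earlier results of these data known. The named genes are every member at or above that level, the others by their FPKM, and the called genes of the wider list. Alternatives covered the pseudocount, filter, scaling, variance model, library weights, replicate block, threshold and omitted libraries. Tables and figures were made with matplotlib 3.10.9, numpy 2.4.6, pandas 2.3.3 and Python 3.11.15.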

Additional observations from a re-analysis of the deposited data

Results flagged for a closer look

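Of 56 sets of 4 libraries examined (28 genes in 2 groups), 3 held a library whose gap to the nearest other exceeded 0.829 of the range of its group. Chance gives about 1 in 20 such sets. Gabrg1 had 0.543 FPKM in AAV2-scramble 2, against 1.30 to 1.32 in the other controls. Gabbr1 had 83.9 FPKM in AAV2-shCX36 2, against 79.3 to 79.8 in the others of its group. Gabre had 0.00733 FPKM in AAV2-scramble 4 and was listed at 0 in the other controls.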

How the results depend on the processing

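In limma none of the 23 genes passed an adjusted p of 0.05 under the 11 alternatives that kept all 8 libraries (lowest adjusted p 0.0596), and none of those 245 values changed sign. At a threshold of 0.1, 1 passed (Glra3, higher). Scaling moved the median log2 difference of all genes by less than 0.1. Without AAV2-scramble 1 and 2, 1 of the genes was called higher and 1 lower, and without AAV2-scramble 3 and 4, 5 and 3. Leaving out 1 library at a time gave 0 to 1 higher (Glrb) and 0 lower. The 8 genes at an unadjusted p under 0.05 became 5 with array weights, 4 without AAV2-shCX36 1 and 4, and 4 to 7 without 1 library. A filter of 5 FPKM also gave 5, but only 15 genes were tested there, and Gabrg3, Glra1 and Glra3 were below that filter.

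Of all genes, 288 were higher and 324 lower. These became 177 and 134 with no filter, 571 and 582 at a threshold of 0.1, and 1542 and 1914 without AAV2-scramble 3 and 4. Leaving out AAV2-shCX36 1 and 4 gave 68 and 28. Without AAV2-scramble 1 and 2, 565 were higher, and without 1 library 96 to 575 were higher and 70 to 591 lower. The replicate block gave 107 and 57. Same-numbered libraries did not deviate together (correlations 0.128, -0.302, 0.227 and -0.269), so the numbers were not taken as pairs. Of the wider list, 1 gene was lower. This became 0 with the replicate block (Mdga1 adjusted p = 0.0884) and without AAV2-shCX36 1 and 4 (0.140), 2 at a threshold of 0.1, and 0 to 2 without 1 library. A filter of 5 FPKM also gave 0, but Mdga1, at a mean of 3.96 FPKM, was not tested there. Without AAV2-scramble 1 and 2 the wider list gave 1 higher and 2 lower, and without AAV2-scramble 3 and 4, 2 higher and 5 lower.

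Signs turned without AAV2-scramble 1 and 2 for Gabra3 (-0.0734), Gabrb2 (-0.26), Gabrg1 (-0.0254), Gabrr1 (0.37), Gabrr2 (1.13), Glra2 (-0.0430), Slc6a11 (-0.0012) and Abat (-0.0192). They turned without AAV2-scramble 3 and 4 for Gabra2 (-0.0068), Gabra4 (0.13), Gabrb1 (0.0335) and Gabrd (-0.14), and without AAV2-shCX36 1 and 4 for Gabrd (-0.0844). Without 1 library, log2 differences ran from -0.0027 to 0.0715 for Gabra2, -0.33 to 0.0289 for Gabra4, -0.12 to 0.20 for Gabrb2, -0.0305 to 0.17 for Gabrg1, -0.0391 to 0.14 for Gabrd, -0.71 to 0.26 for Gabrr2 and -0.0260 to 0.13 for Glra2. The cause was not tested. Genes near 1 FPKM rest on few fragments, about 36 to 39 per kilobase.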
